A study of Mus musculus with 12 samples.

Results

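Rnase1, its relatives Rnase4, Ang, Rnase6 and Rnase10, and the ribonuclease inhibitor gene Rnh1 are described here in the mouse olfactory epithelium over 12 time points. Of these 6 genes, 4 had a probe annotated to 1 symbol (Rnase1, Rnase6, Rnase10 and Rnh1, with 1 probe each), out of 19937 genes measured that way. Rnase4 and Ang are both named by a single probe of the array, so neither has a value of its own. Rnase1 was chosen by its 24 h rhythm in these same pools, and the others as relatives or as the inhibitor. The tissue came from 48 male C57BL/6 mice kept for at least 14 days in 12 h of light and 12 h of darkness and then moved to constant darkness, which every pool shares. The labels used here name no age. At each time point from CT12 to CT56, 4 h apart, the RNA of 4 mice was combined into 1 pool and hybridised to 1 array. CT is circadian time, in which 0 to 12 is the subjective day and 12 to 24 the subjective night. The 12 pools therefore form 6 phases of the day (0, 4, 8, 12, 16 and 20 h) with 2 pools each, CT12 to CT32 from the first cycle and CT36 to CT56 from the second. The p-values below rest on the spread of pools around each fit. In the rhythm tests the fit is a cosine, and departures from its shape add to that spread. In the comparison of cycles it is the spread within phases. A pool hides the spread between its mice, and fewer cells of a type cannot be told apart from less RNA per cell.

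Secreted ribonucleases of the RNase A family cut single-stranded RNA outside cells and in the secretory route. Rnase1 encodes the pancreatic-type enzyme that clears RNA from body fluids, Ang encodes angiogenin, which also cuts transfer RNA inside stressed cells, and Rnase6 encodes an antibacterial relative made by macrophages and by epithelia. Rnase10 encodes a family protein known from the epididymis. Rnh1 encodes a cytosolic protein of leucine-rich repeats that binds and blocks these enzymes when they reach the cell interior. At mucosal surfaces such as the nasal lining, family members belong to the secreted defence against microbes.

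Stretches before the start sites are shown for Rnase1, the gene with the 24 h rhythm, for Rnh1, the member whose stretch holds the core clock motif, and for Rnase4 and Ang, which share a start site as well as a probe. All 6 genes were found in the RefSeq promoter table of GRCm38.p6, with 12 start sites. Each stretch gives the 250 bases before a start site, 5′ to 3′ on the strand of the gene, and capitals mark CACGTG, the E-box bound by CLOCK and BMAL1.

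Rnase1, chr14:51146768-51147017, minus strand: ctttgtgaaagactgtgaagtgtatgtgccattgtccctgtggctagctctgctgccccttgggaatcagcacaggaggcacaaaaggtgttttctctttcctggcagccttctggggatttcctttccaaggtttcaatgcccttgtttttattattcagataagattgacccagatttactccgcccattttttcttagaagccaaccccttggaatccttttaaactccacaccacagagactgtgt
Rnh1, first of 3 start sites, chr7:141172852-141173101, minus strand: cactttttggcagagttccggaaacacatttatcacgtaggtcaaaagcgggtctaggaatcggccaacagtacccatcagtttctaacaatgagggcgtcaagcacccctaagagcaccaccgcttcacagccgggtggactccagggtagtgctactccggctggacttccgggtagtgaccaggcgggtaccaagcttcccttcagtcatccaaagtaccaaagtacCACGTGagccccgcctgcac
Rnase4 and Ang, shared first start site, chr14:51090827-51091076, plus strand: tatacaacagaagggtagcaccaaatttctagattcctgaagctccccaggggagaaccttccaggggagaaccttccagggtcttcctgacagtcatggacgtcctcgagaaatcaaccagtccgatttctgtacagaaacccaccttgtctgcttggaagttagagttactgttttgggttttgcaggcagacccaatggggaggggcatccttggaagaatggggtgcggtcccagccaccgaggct

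Of 5 motifs searched on both strands, the Rnase1 stretch held 0 matches. These were CACGTG, the D-box forms TTATGTAA and TTACGTAA, which Dbp and its relatives bind, the nuclear receptor half-site AGGTCA and the TATA box form TATAAA. The Rnh1 stretch held CACGTG with its first letter 20 bases before the start and AGGTCA with its first letter 212 bases before it. Its second start site had TATAAA 188 bases before the start, and its other one had 0 matches. The shared Rnase4 and Ang stretch also held 0 matches. Rnase10 had AGGTCA before both of its start sites, a single site that lies in both stretches because they overlap. Rnase6 had 0 matches before its 3. Among all 32851 stretches of the same length, 6.02% held CACGTG, 0.819% TTATGTAA, 0.113% TTACGTAA, 14% AGGTCA and 12.4% TATAAA. In the gene order of that assembly Rnase1 lies on chromosome 14 with Rnase6 as the next coding gene on one side and Rnase2b on the other, and Rnh1 lies on chromosome 7.

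The values are log2 intensities as deposited, so a difference of 1 is a doubling of signal. Column medians lay between 7.81 and 7.92. The CT56 pool had the lowest mean correlation with the other pools over all probes (0.975, against 0.981 to 0.988 for the rest) and the lowest array weight (0.332). Markers of the labelled tissue were present: the mean of 6 olfactory sensory neuron genes lay between 11.99 and 12.37, and that of 5 genes of the sustentacular supporting cells between 12.20 and 12.42. The labels do not name array batches.

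Rnase1 was high late in the subjective day and low from late night to dawn, in both cycles. It read 8.93 at CT32 and 9.15 at CT56, the pools of phase 8 h. Phase 12 h read 8.72 at CT12 and 8.82 at CT36. Phase 4 h read 8.41 at CT28 and 8.64 at CT52. The subjective day is the rest time of the mouse, which is active at night. Phase 16 h read 8.41 at CT16 and 8.27 at CT40, phase 20 h 8.20 at CT20 and 8.21 at CT44, and phase 0 h 8.28 at CT24 and 8.11 at CT48. From the highest phase to the lowest the order was 8, 12, 4, 16, 20 and 0 h. The pools of phases 8 and 12 h did not overlap, nor did those of 12 and 4 h. Those of phases 4 and 16 h lay 0.00046 apart, phases 16 and 20 h were 0.06 apart, and phases 20 and 0 h overlapped.

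The mean of phase 8 h, 9.04, stood 0.85 above that of phase 0 h, 8.20, which is a 1.80-fold difference in signal. The SD between the 2 pools of a phase, taken over the 6 phases, was 0.12, and 93.4% of the variance of Rnase1 lay between phases. The fitted 24 h cosine had an amplitude, the distance from mean to peak, of 0.42 ± 0.05 (SE, 12 pools) with its peak at CT 9.03 ± 0.49 h (SE). These values chose the gene and are given as a description with no test. By the adjusted p that served as the threshold, Rnase1 lay just inside, next to Arntl (amplitude 0.35 ± 0.04). Just outside were Ciart (0.51 ± 0.07), a repressor of the clock loop, and Adgrf1 (0.37 ± 0.05), an adhesion receptor.

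**Figure D1:**
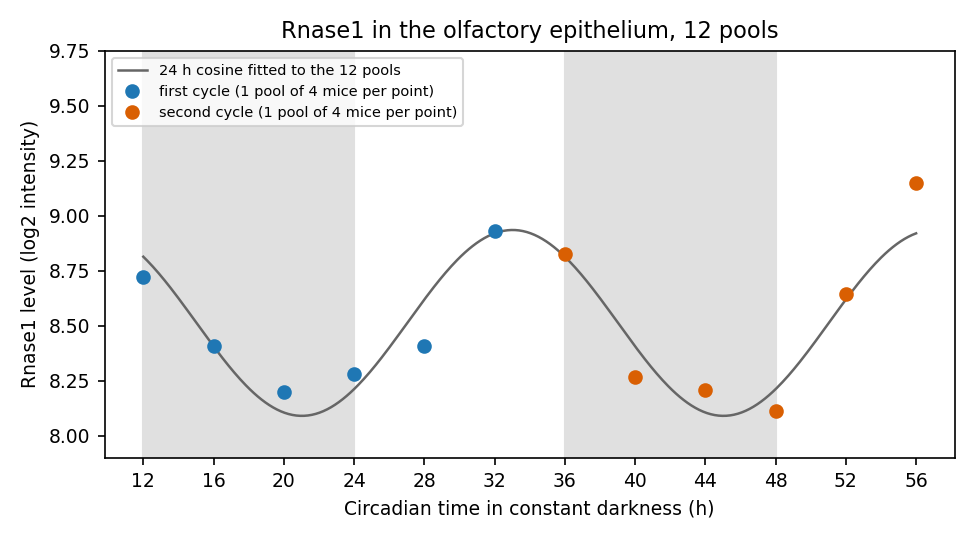
Log2 intensity of Rnase1 in each of the 12 pools against circadian time in hours, with the fitted 24 h cosine as a line and the subjective night shaded. The 4 pools of phases 8 and 12 h, from 8.72 to 9.15, lie above the other 8, and the CT56 pool lies furthest above the curve.

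The peak of Rnase1 fell among those of clock genes with daytime maxima. Dbp, a transcription factor driven by the clock, had its fitted peak at CT 7.79 ± 0.36 h (SE) and Nr1d1, which encodes the repressor REV-ERBα, at CT 5.97 ± 0.36 h. Ciart peaked at CT 8.63 ± 0.56 h and Per3, a member of the period family, at CT 9.31 ± 0.80 h. Ciart and Per3 did not pass the 24 h test (limma, adjusted p = 0.104 and 0.518). By these fits Rnase1 peaked 1.24 h after Dbp and 3.06 h after Nr1d1. With each of the 12 pools left out in turn the lag ranged from 0.88 to 1.53 h for Dbp and from 2.62 to 3.31 h for Nr1d1. The lag behind Ciart (0.40 h, from -0.23 to 0.94 h) and the lead on Per3 (0.28 h, from a lead of 0.59 h to a lag of 0.22 h) changed sign among those fits. The peak of Arntl, the gene of the activator BMAL1, was at CT 21.57 ± 0.46 h, 11.45 h away (from 10.80 to 11.80 h). The left-out fits share most of their pools, so their ranges are not the error of a lag. The pools were 4 h apart, and the differences in peak time were not tested.

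**Figure D2:**
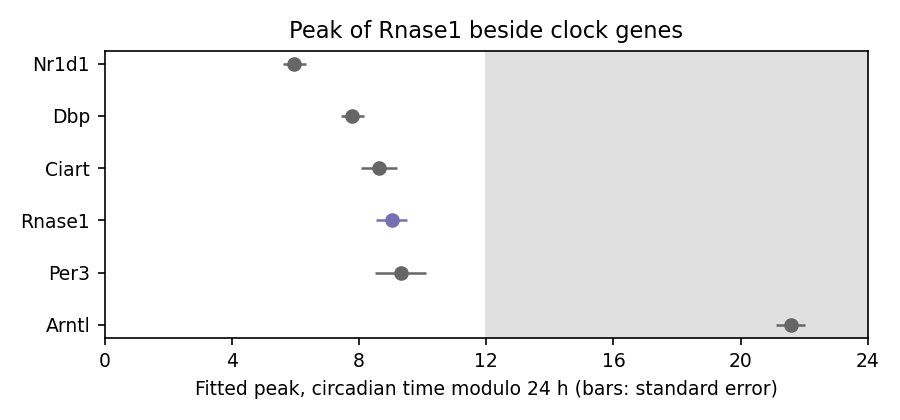
Fitted peak time (circadian time modulo 24 h) of Rnase1 and 5 clock genes, with bars for the standard error and the subjective night shaded. Rnase1 at CT 9.03 lies between Ciart at CT 8.63 and Per3 at CT 9.31, and Arntl stands alone in the night. Ciart and Per3 did not pass the 24 h test.

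The shape of the Rnase1 curve was then compared between cycles. The 24 h test that chose Rnase1 counts differences between cycles and a 12 h term as residual spread. The choice therefore favoured a gene in which these are small, and the values for Rnase1 below are not independent of it. Its mean was 8.49 ± 0.28 (SD, 6 pools) in the first cycle and 8.53 ± 0.41 in the second. The second cycle was 0.04 ± 0.07 (SE) higher with phase held fixed, with a 95% interval from -0.10 to 0.19 (limma, adjusted p = 0.823). Pool by pool, the second cycle was higher at 4 phases (12, 20, 4 and 8 h) and lower at 2 (16 and 0 h). Fitted alone, the first cycle swung by 0.34 around its mean with the maximum at CT 9.46, and the second by 0.51 with the maximum at CT 8.73. The amplitude of the difference between both curves was 0.18 ± 0.11 (limma, adjusted p = 1.000), which did not pass the threshold. A 12 h cosine beside the 24 h terms had an amplitude of 0.11 ± 0.05 (limma, adjusted p = 0.817). Over all genes, 0% passed the adjusted threshold of 0.05 in each of these 3 tests, and 13.2%, 0.717% and 5.33% had an unadjusted p under 0.05 for the cycle difference, the change of rhythm and the 12 h term. For Rnase1 the unadjusted p were 0.537, 0.285 and 0.100.

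The relatives and the inhibitor gene did not pass the 24 h test, which was not used to choose them. Of Rnase6, Rnase10 and Rnh1, 0 of 3 passed in limma, where 5 of 19937 genes (0.0251%) did, and 0 of 3 had an unadjusted p under 0.05, where 3.54% of all genes did. Rnase6, the antibacterial relative, read 6.99 in its lowest pool (CT12), 7.15 in the median and 7.34 in its highest (CT16). Its phase means spanned 0.13, less than the SD of 0.15 between pools of a phase, and each phase overlapped the next in order. The amplitude was 0.03 ± 0.05 (SE, 12 pools; limma, adjusted p = 0.996). The part of its cosine at the peak time of Rnase1 was 0.01, with a 95% interval from -0.11 to 0.12. That interval lies below the amplitude of Rnase1 (0.42, 95% interval from 0.31 to 0.54). The peak and amplitude of Rnase1 chose that gene, so the comparison is a description with no test.

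Rnase10 was low in the phase at which Rnase1 was high. It read 5.29 at CT32, the lowest pool of the first cycle, and 5.004 at CT56, the lowest of the second. CT48 read 5.25, and the other 9 pools lay between 5.43 and 5.70. The phase mean of 5.15 at 8 h was 0.48 below that of 5.63 at 4 h, and the ranges of neighbouring phases in the order of means overlapped throughout. The 24 h cosine had an amplitude of 0.10 ± 0.07 (limma, adjusted p = 0.996), and the part at the peak of Rnase1 was -0.08 with a 95% interval from -0.24 to 0.08. Its 12 h term was 0.12 ± 0.07 (limma, adjusted p = 0.817). CT56 and CT32 are also the pools with the lowest mean correlations to the others, and the probe is dim, at the 5.30th percentile of mean signal; the part of these in the dip was not tested. The 24 h amplitude was 0.03 without CT56 and 0.08 without CT32.

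Rnh1 varied little over the day. It read 10.61 in its lowest pool (CT40), 10.75 in the median and 10.94 in its highest (CT32). Its phase means spanned 0.16 from phase 0 h down to phase 16 h, a 1.12-fold difference, with an SD of 0.09 between pools of a phase. All neighbouring phases overlapped. The 24 h amplitude was 0.07 ± 0.04 (limma, adjusted p = 0.996), and the part at the peak of Rnase1 was 0.01 with a 95% interval from -0.08 to 0.10. That interval lies below the Rnase1 amplitude of 0.42, which is again a description with no test, since that value chose Rnase1. The stretch with CACGTG printed above is the first of its 3 start sites, and the array does not tell the start sites apart.

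**Figure D3:**
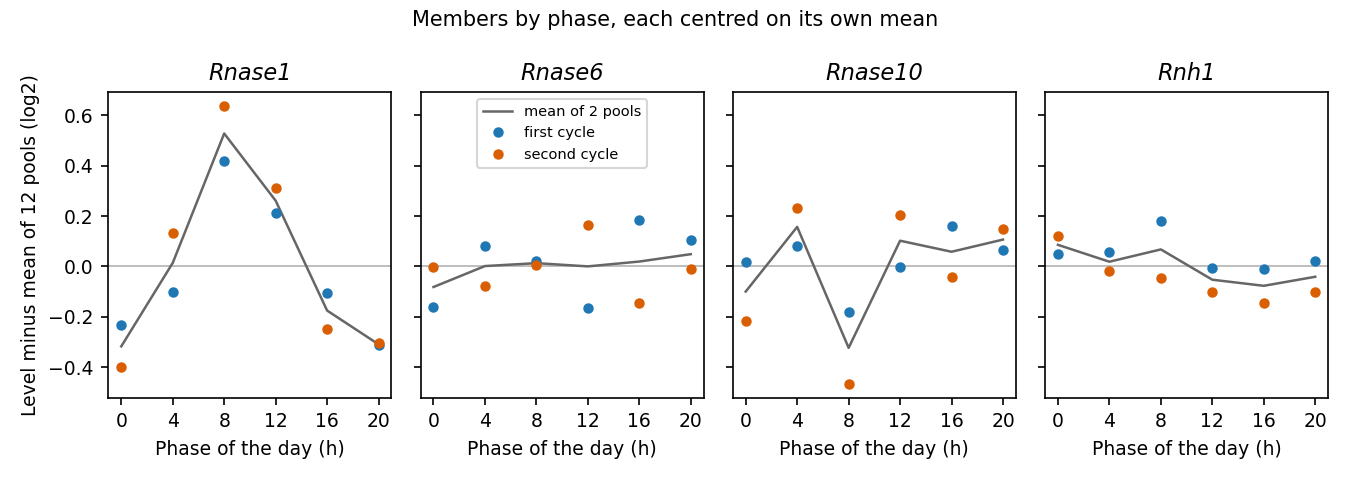
Level of each of the 4 measured genes, as log2 difference from its own mean of 12 pools, against phase of the day in hours. Points are single pools, coloured by cycle, and the line joins the means of 2 pools. Rnase1 spans 0.85 between its phase means, Rnase6 0.13 and Rnh1 0.16, and Rnase10 dips at 8 h.

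Between the cycles, Rnh1 had the largest difference of the 4 genes relative to its error. It read 10.80 ± 0.07 (SD, 6 pools) in the first cycle and 10.71 ± 0.09 in the second, and was lower in the second in 5 of 6 pairs of pools at the same phase. The difference was -0.10 ± 0.05 (SE; limma, unadjusted p = 0.0979, adjusted p = 0.459), with a 95% interval from -0.22 to 0.02. Rnase6 differed by -0.02 ± 0.08 and Rnase10 by -0.05 ± 0.08. Of the 4 genes, 0 had an unadjusted p under 0.05 in this comparison, in the 12 h test or in the test for a change of rhythm.

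Each gene was also set beside the genes of a like level, those whose mean lay within 0.25 of its own, because pools can differ in how dim or bright probes read as a class. For Rnase1 there were 2443 such genes, and their median ranged over 0.13 across the pools, against 1.04 for Rnase1. The 3 other genes moved over ranges nearer to that of the median of their class, Rnase10 the least so. A median of many genes moves less than single genes can, so it does not measure their ranges. By SD over the 12 pools, Rnase1 stood at the 98.4th percentile of all genes and Rnase10 at the 87.1st. Rnase6 stood at the 39.0th and Rnh1 at the 17.6th. The choice of Rnase1 by its 24 h rhythm in these pools favoured a wide range and a high SD. Its contrast with the 3 other genes is therefore a description with no test. The median of 632 genes at the level of Rnase10 ranged over 0.19, against 0.70 for the gene. For Rnase6 the values were 0.28 for 1957 genes and 0.35 for the gene, and for Rnh1 0.19 for 528 genes and 0.33 for the gene. Over the 12 pools the correlation with that median was 0.16 for Rnase1, 0.48 for Rnase6, 0.68 for Rnase10 and 0.66 for Rnh1, given as a description of values that share arrays. The part of array scaling in these patterns was not tested.

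**Figure D4:**
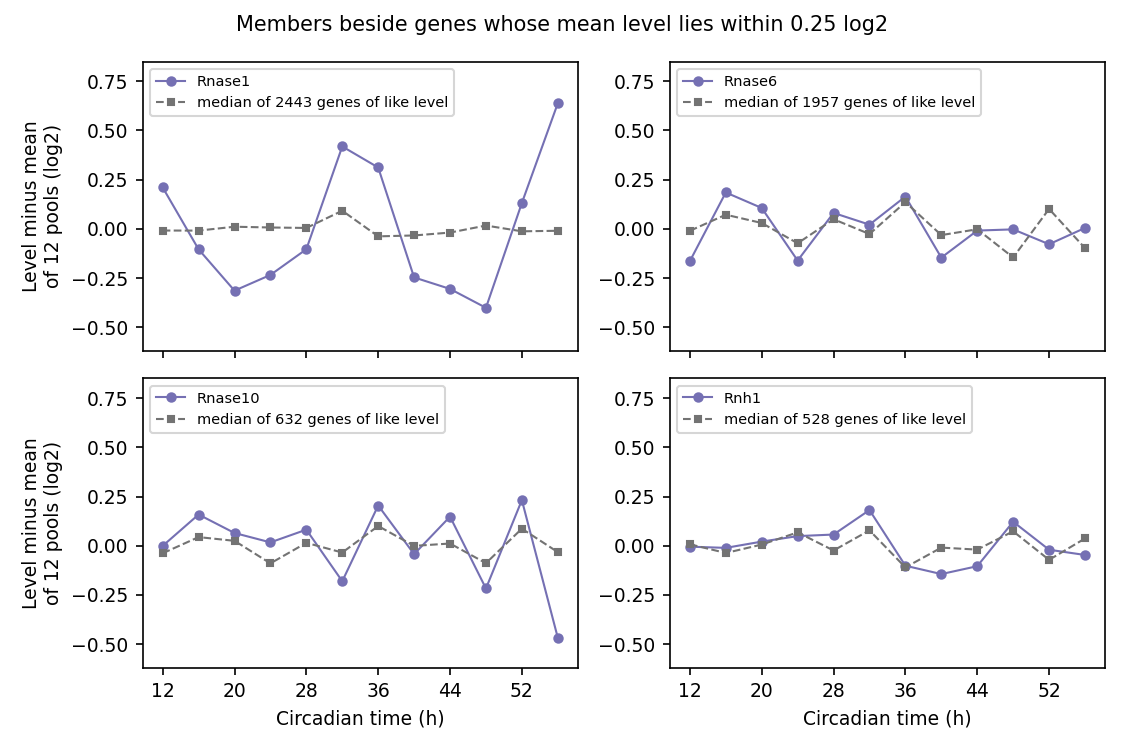
Each measured gene (circles) and the median of all genes within 0.25 log2 of its mean (squares), both centred on their mean of 12 pools, against circadian time in hours. Rnase1, which was chosen by its 24 h rhythm, moves over 1.04 and the median of its class over 0.13. The medians of the other classes range over 0.28 (Rnase6), 0.19 (Rnase10) and 0.19 (Rnh1).

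Other RNase A family genes did not pass the 24 h test either. Of 21 other family genes looked up, 12 had a probe of their own, most of them dim (median at the 12.4th percentile of signal). Of these, 0 of 12 passed the 24 h test in limma and 0 of 12 had an unadjusted p under 0.05. Their amplitudes lay between 0.05 and 0.10, with a median of 0.07, beside a median of 0.06 over all genes. The next coding gene to Rnase1 on the far side from Rnase6, Rnase2b, which encodes an eosinophil-type ribonuclease, had an amplitude of 0.06 ± 0.06. The smallest p belonged to Ang5, an angiogenin relative, which ranged from 6.87 at CT48 to 7.31 at CT16 (amplitude 0.10 ± 0.05, fitted maximum at CT 9.71; limma, adjusted p = 0.996). It was followed by Rnase11 (0.07 ± 0.04) and Ang2 (0.07 ± 0.04). Family members are close in sequence, and a probe may bind the transcript of a relative.

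Several family genes shared their extreme pools. Of the 12 genes, 7 were highest at CT36 and 4 lowest at CT56, and CT36 was also the highest pool for 31.1% of the genes below the 25th percentile of mean signal and for 18.5% of all genes. CT56 was the lowest pool for 20.3% of those dim genes and for 19.5% of all genes. Correlations with Rnase1 over the 12 pools ran from -0.14 for Rnase2b to 0.53 for Ang5, the 26.9th and 94.0th percentiles of all genes. Without CT32 and CT56, the pools in which Rnase1 lay furthest from its median, they ran from 0.28 for Ang2 to 0.82 for Ang6. Both pools are of phase 8 h, so this leaves out the phase in which Rnase1 was highest. Over all 12 pools r of Ang6 was 0.01. The range without CT32 and CT56 has no share over all genes beside it. Between the cycles, 6 of 12 were higher in the second, and 1 had an unadjusted p under 0.05 (limma), Ang4, an intestinal angiogenin relative, with a difference of -0.24 ± 0.10. That share is read beside 13.2% of all genes.

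**Figure D5:**
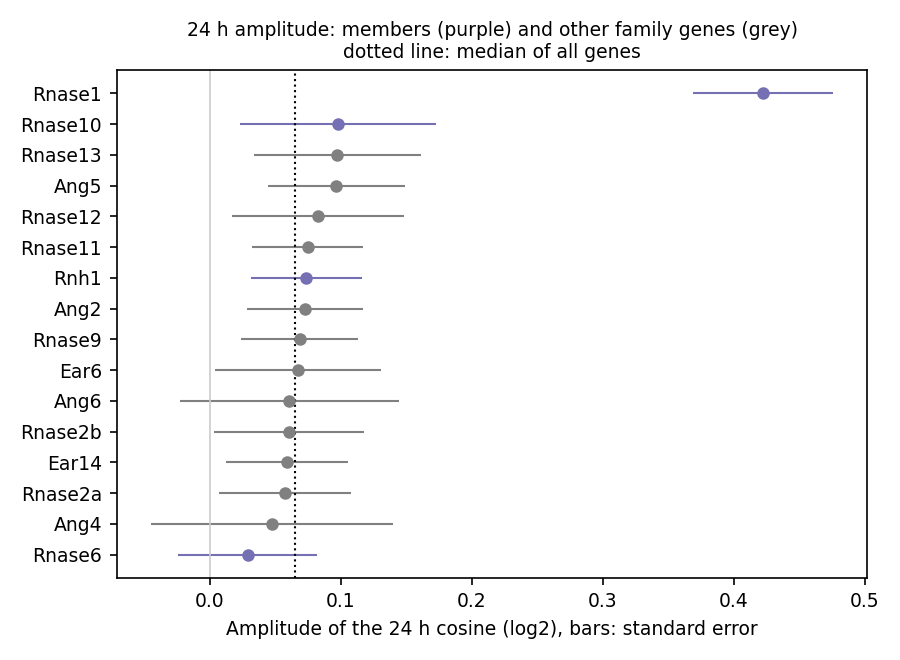
Amplitude of the fitted 24 h cosine (log2) with its standard error for the 4 measured genes (purple) and 12 other RNase A family genes (grey), with the median of all genes (0.06) as a dotted line. Rnase1 stands at 0.42, which is how it was chosen, and the other 15 lie at or below 0.10.

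Genes that act with these enzymes were taken from lists of their partners and pathways. In the 24 h test 3.54% of all genes had an unadjusted p under 0.05, and a count of 1 in a list of 7 to 15 genes is read beside that share. Of 15 measured ribonucleases outside the family, 0 passed the 24 h test and 1 had an unadjusted p under 0.05, Rnaseh2a, the catalytic subunit of RNase H2 (amplitude 0.17 ± 0.05, peak at CT 6.52; limma, adjusted p = 0.996). Of 7 cell-surface partners of angiogenin and its relatives, 0 passed and 1 had an unadjusted p under 0.05, Anxa2 (0.21 ± 0.07, peak at CT 1.22), a membrane-binding protein. The angiogenin receptor Plxnb2 had an amplitude of 0.05, and read lower in the second cycle by -0.20 ± 0.06. With Sdc4, a heparan sulfate carrier (-0.20 ± 0.06), and Actn4 (-0.17 ± 0.07) it made 3 of 7 partners with an unadjusted p under 0.05 between the cycles, none of which passed after adjustment in limma, beside 13.2% of all genes with such a p. The median difference of the 7 was -0.06, beside -0.03 over all genes.

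Among 10 genes listed under RNA sensing in endosomes and the cytosol, 0 passed the 24 h test. The list holds adaptors and other proteins of these routes as well as RNA sensors. Unc93b1, which carries the endosomal Toll-like receptors, was the 1 with an unadjusted p under 0.05 (amplitude 0.12 ± 0.04, peak at CT 6.74). Between the cycles, 3 of the 10 read higher in the second, with a median difference of -0.03. The 1 with an unadjusted p under 0.05 was Tlr3, the receptor for double-stranded RNA (0.22 ± 0.07), which did not pass after adjustment in limma, beside 13.2% of all genes with such a p. Among 15 secreted defence proteins of mucosa, 0 passed and 1 had an unadjusted p under 0.05, the lysozyme gene Lyz2 (0.33 ± 0.12, peak at CT 1.16), which read 8.73 at CT12 and 10.02 at CT44. These defence genes read higher in the second cycle in 13 of 15 cases with a median of 0.14, beside -0.03 over all genes. In every list, the count of genes higher in the second cycle has no share over all genes beside it. Lyz2, S100a8, S100a9, Bpifa1, Bpifb1, Pigr, Pglyrp1, Ltf, Defb1 and Lpo read lowest at CT12, a single pool of the first cycle. Reg3g and Lcn2 were lowest at CT16, Lyz1 and Slpi at CT32, and Camp at CT44. CT12 was the lowest pool for 4.24% of all genes, and its part in the difference between cycles was not tested. Pglyrp1, which binds bacterial peptidoglycan (0.42 ± 0.12), Defb1, a defensin (0.26 ± 0.09), Lcn2 and Reg3g made 4 of 15 with an unadjusted p under 0.05 between the cycles, beside 13.2% of all genes, and 0 passed after adjustment in limma. Of the olfactory sensory neuron markers, 0 of 6 read higher in the second cycle and 4 of 6 were lower with an unadjusted p under 0.05, with a median difference of -0.18. After adjustment 0 of the 6 passed in limma. The share of 13.2% of all genes with an unadjusted p under 0.05 counts both directions. The part of these markers in the differences between cycles was not tested. Of 5 measured enzymes that modify transfer RNA, 0 had an unadjusted p under 0.05 in the 24 h test, and 2 of 5 read higher in the second cycle, with a median difference of -0.02. Trdmt1, a transfer RNA methyltransferase, was the 1 with an unadjusted p under 0.05 between the cycles (0.18 ± 0.07) and did not pass after adjustment in limma.

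Markers of cell types that can express Rnase1 or its relatives were compared between the phases where Rnase1 was high (8 and 12 h, 4 pools) and low (20 and 0 h, 4 pools). The mean of 8 endothelial genes lay between 7.98 and 8.11 in the former and between 8.04 and 8.20 in the latter, and 0 of 8 genes were higher when Rnase1 was high. For 3 measured genes of pancreatic acinar cells, 3 of 3 were higher, with list means from 6.78 to 7.30 against 6.83 to 7.12, which overlap. Macrophage genes were higher in 5 of 8 cases (7.52 to 7.63 against 7.46 to 7.66) and eosinophil genes in 4 of 4 (6.71 to 7.09 against 6.62 to 6.91). Nasal gland genes were higher in 3 of 6 cases (9.79 to 11.66 against 10.22 to 12.04). Neutrophil genes were higher in 1 of 6 cases (6.77 to 7.27 against 7.13 to 7.52), muscle genes in 1 of 4 (7.48 to 7.98 against 7.63 to 7.796) and bone genes in 0 of 3 (7.71 to 8.15 against 7.86 to 8.76). Olfactory sensory neuron genes were higher in 5 of 6 (12.08 to 12.37 against 11.99 to 12.23) and sustentacular genes in 4 of 5 (12.20 to 12.40 against 12.25 to 12.42). The ranges of all 10 lists overlapped between these phases. The part of these lists in the Rnase1 values was not tested. The counts have no share over all genes beside them. Of the dim genes described above, 31.1% were highest at CT36 (phase 12 h). CT48 (phase 0 h) was lowest for 28.9% of them, and CT56 (phase 8 h) for 20.3%. The eosinophil mean was highest at CT36 and lowest at CT48. The acinar mean was highest at CT36 and lowest at CT32. The part of such shared shifts of pools in the counts was not tested.

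The genes whose levels ran most like Rnase1 over the 12 pools were ranked by Pearson's r over all genes, as a description with no test. The highest was Coro6, an actin-binding coronin, at 0.91 (Spearman's rho 0.91, and r 0.89 without CT32 and CT56). It was followed by Gm7467 (0.91), the receptor gene Olfr1342 (0.90), F8, which encodes coagulation factor VIII (0.90), A230056P14Rik (0.90), Dbp (0.90), Wdr38 (0.89) and Bbs10, a chaperonin-like gene of cilia (0.89). Without CT32 and CT56 these 8 had r between 0.75 (Bbs10) and 0.95 (F8). All 8 had fitted peaks between CT 7.79 and CT 9.82, and 7 of them had amplitudes of 0.13 to 0.20, below the 0.42 of Rnase1, with Dbp at 0.51. After the 24 h cosine had been taken from each gene, r of the 8 ranged from 0.39 for Coro6 to 0.87 for Bbs10, with 0.45 for Dbp. The most opposed were Adgrf1 (-0.92), Ybx3, a cold-shock domain protein that binds RNA (-0.91), and Cd44, the hyaluronan receptor (-0.91), with peaks between CT 20.56 and CT 21.78. Cd44 had the largest swing of the 3, with an amplitude of 0.56 ± 0.06. Rnase1 was chosen by its 24 h rhythm, and the 8 and the 3 genes by their r with it. Peaks near that of Rnase1, or opposite to it, therefore follow largely from the choice.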

How the data were processed

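The deposited values comprise 1 log2 intensity per probe and pool, read as log2 from their range of 3.48 to 14.5. Per the submitters' processing notes affy was used; the sources used here do not say how background was corrected or arrays normalized, and the values were used as deposited by the authors. Probes with 1 gene symbol in the platform annotation (21640 of 34760; 1321 have several and 11799 are not listed) were kept, 21553 of them matched by Entrez ID to RefSeq names of GRCm38.p6 with 0 symbols changed, with the probe of highest mean per gene, which left 19937 genes. All fits used limma 3.58.1 in R 4.3.3 over all genes, with Benjamini-Hochberg adjustment and a threshold of 0.05: a 24 h cosine and sine (9 residual degrees of freedom), cycle with phase as a factor (5), 12 h terms beside the 24 h terms (7), and 24 h terms by cycle (6). The fits were tested on simulated data. The members and lists were chosen with earlier results of these data known.

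Named genes were the measured members, from each list those past the threshold or else up to 3 with the smallest p of the 24 h fit, and the 8 genes most and 3 least like Rnase1; list genes named for the cycle comparison, Rnase2b and Plxnb2 were named after their values were seen, and the marker lists are given by counts. The alternatives were quantile normalization, median centring, filters at the 25th and 50th percentile of the mean level, averaged probes per gene, a robust prior with a trend, weights per array, time in darkness as a linear term, cycle as a block, periods of 22 and 26 h, a cosine for phase or no phase term in the cycle test, and leaving out each pool. The number of arrays limits the precision, and p-values rest on the spread of pools around each fit. Figures used matplotlib 3.10.9 in Python 3.11.15.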

Additional observations from a re-analysis of the deposited data

Results flagged for a closer look

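Within the 6 pools of each cycle, the values of the 4 measured genes were compared for a single distant pool, which makes 8 groups. Rnh1 stood out once. Its CT32 pool, at 10.94, lay far above the others of the first cycle, with a ratio of the gap to the range of 0.648, above Dixon's 95% critical value. Chance gives such a ratio in about 1 in 20 groups. The median of the 528 genes of a like level was also highest at CT32, at 10.80.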

How the results depend on the processing

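Of Rnase6, Rnase10 and Rnh1, 0 passed the 24 h test under every alternative in which they were tested, and of the 4 measured genes 0 passed the cycle, 12 h or change-of-rhythm tests. Rnase10 was not tested with the filter at the 25th percentile, nor Rnase10 and Rnase6 with that at the 50th, since their probes are dimmer. The Rnase1 amplitude lay between 0.37 and 0.42 under the other alternatives and between 0.37 and 0.44 without each pool, with peaks from CT 6.78 (period of 26 h) to CT 11.41 (period of 22 h). With cycle as a replicate block it was 0.42. The cycle difference of Rnase1 was -0.016 with array weights. Without each pool that of Rnase6 ranged from -0.093 to 0.039 and that of Rnase10 from -0.098 to 0.00057. The cause of these changes of sign was not tested. The other differences kept their direction.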
